A study of Mus musculus with 20 samples.

Results

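Polycomb repressive complex 2 (PRC2) places methyl groups on histone H3, the mark H3K27me3 of silenced genes. The 10 genes described here were taken from a list of its core and accessory subunits: Ezh1, Ezh2, Suz12, Eed, Rbbp4, Rbbp7, Phf1, Mtf2, Phf19 and Jarid2. All 10 are among the 23284 genes of the deposited table, and all 10 were among the 13456 genes tested. They were measured by poly-A RNA sequencing in 20 libraries of tissue recombinants, 4 in each of 5 groups. A tissue recombinant is a graft that joins epithelium of one source to mesenchyme of another. Here mouse seminal vesicle or prostate epithelium, from donors aged 2 months, was joined to urogenital sinus mesenchyme of Sprague Dawley rats, the embryonic stroma that induces prostate. Grafts of all 5 groups were collected 3 months after implantation. The treatment protocol, written for every sample alike, gives doxycycline in the drinking water for 3 months to switch on the inducible vector. The labels list the mouse background of every sample as a hybrid of 129/SvImJ and C57Bl/6J, whereas the protocol names C57Bl/6J donors.

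SVE is seminal vesicle epithelium with wild-type NKX3.1, and PE is prostate epithelium. The other 3 groups are seminal vesicle epithelium with the construct labelled mNKX3.1, with the hairpin labelled UTY_sh, or with both (mNKX3.1+UTY_sh). UTY is encoded on the Y chromosome and resembles the H3K27 demethylase KDM6A. The series' title sets it in a network of prostate differentiation, and PRC2 is the enzyme that makes the mark which KDM6 demethylases remove. The labels do not say what the m in mNKX3.1 stands for, and the protocol mentions a wild-type and a point-mutant protein, so the groups are named here as labelled. The libraries of a group were numbered 1 to 4 to name them. No label ties them to different animals, and the p-values therefore rest on a spread that may be technical.

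EZH2 and EZH1 are the alternative catalytic subunits, and EED and SUZ12 complete the core together with the histone-binding proteins RBBP4 and RBBP7. EZH2 is the form of dividing cells, whereas EZH1 is kept in resting, differentiated tissue. The core joins either a Polycomb-like protein (PHF1, MTF2 or PHF19), in the form called PRC2.1, or JARID2 and AEBP2, in the form called PRC2.2. These partners bring the complex to CpG-rich DNA. RBBP4 and RBBP7 also belong to other chromatin complexes, among them NuRD, Sin3 and the chromatin assembly factor CAF-1.

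Depth was about 14930000 to 29810000 reads a library, with the shallowest libraries in PE and mNKX3.1. The 50 most abundant genes took 35.6 to 38.2% of the reads in PE and mNKX3.1 and 58.0 to 67.8% in the other 3 groups. Uty, the gene that the hairpin label names, did not separate the hairpin groups from SVE, with SVE at 9.04 to 9.55, UTY_sh at 8.98 to 9.52 and mNKX3.1+UTY_sh at 9.09 to 9.29. It was at 10.07 to 10.31 in mNKX3.1, so that mNKX3.1+UTY_sh differed from mNKX3.1 by -1.08 (SE 0.11, adjusted p = 1.37e-07 by limma). Some libraries stood apart from their group. SVE replicate 1, UTY_sh replicate 3 and mNKX3.1+UTY_sh replicate 4 had summed levels of 10 prostate secretory genes of 17.93, 16.96 and 17.35, against 11.63 in the lowest SVE library. These are the 3 left out together below for their probasin RNA. UTY_sh replicate 2, at 16.31, and mNKX3.1+UTY_sh replicate 3, at 15.14, were also high and stayed in that fit. PE replicates 2 and 4 and mNKX3.1 replicates 2, 3 and 4 had summed levels of 9 leukocyte markers of 12.99 to 14.08, against 10.98 to 11.65 in the other 15 libraries.

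In PE, 3 PRC2 genes were higher than in SVE and 3 were lower. Jarid2, Rbbp4 and Rbbp7 rose by 0.43, 0.27 and 0.47 on the log2 scale, whereas the changes of Ezh2, Phf19 and Mtf2 were -0.61, -0.38 and -0.27. Ezh1, Suz12, Eed and Phf1 did not pass. A gene was called when limma's p-value, adjusted by Benjamini-Hochberg over all 13456 genes, was below 0.05. By that rule 62.1% of all genes tested were called in PE against SVE, so 6 of 10 members is near the share of genes in general. Of all genes, 31.8% were higher and 30.4% lower. The median difference was -0.04 over the members and 0.02 over all genes, and the median size of the difference was 0.27 against 0.36.

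mNKX3.1 against SVE shares its 4 SVE libraries with that comparison, and its values are set beside it without a measure of likeness. There Jarid2, Rbbp4 and Rbbp7 were again higher, by 0.43, 0.23 and 0.44, and Ezh2, Eed and Mtf2 were lower, with differences of -0.46, -0.14 and -0.19. These 6 of 10 compare with 62.3% of all genes called, 31.7% higher and 30.6% lower. The grafts labelled mNKX3.1 and PE were compared directly, and limma called none of the 13456 genes, with 65 genes (0.483%) and 0 members at an unadjusted p below 0.05. Every member's interval for that difference lay within -0.27 and 0.45, the widest limits being those of Phf19 and Ezh2. The share of 0.483% is below the 0.05 that would be reached with no true difference. The lack of calls is therefore no measure of likeness.

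No PRC2 gene passed in either comparison of a hairpin group with SVE. limma called 0 genes in UTY_sh against SVE, with 316 genes (2.35%) at an unadjusted p below 0.05, and 0 genes in mNKX3.1+UTY_sh against SVE, with 557 (4.14%). It also called 0 in mNKX3.1+UTY_sh against UTY_sh, with 217 (1.61%). None of the 10 members reached an unadjusted p of 0.05 in any of the 3. All 3 shares are below the 0.05 that would be reached with no true difference, so the lack of calls is no measure of likeness. The member estimates in mNKX3.1+UTY_sh against SVE lay between -0.09 for Suz12 and 0.09 for Jarid2.

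mNKX3.1+UTY_sh against mNKX3.1, which shares the 4 mNKX3.1 libraries with the comparison of mNKX3.1 and SVE, showed 5 members called, where 63.8% of all genes were (31.4% higher and 32.4% lower). Ezh2 and Phf19 were higher with the added hairpin label, by 0.47 and 0.37. Jarid2, Rbbp4 and Rbbp7 fell by 0.33, 0.27 and 0.47. The libraries of the groups did not overlap for any of these 5 genes, and 61.9% of all genes were separated in that way. The interaction asks whether the hairpin label goes with a different change when the construct label is present. It is the difference of mNKX3.1+UTY_sh from mNKX3.1 minus that of UTY_sh from SVE. It was called for Jarid2 at -0.37 (SE 0.12, adjusted p = 0.0162), Rbbp4 at -0.24 (adjusted p = 0.00852) and Rbbp7 at -0.47 (adjusted p = 0.00808), which is 3 of 10 members where 48.1% of all genes were called, 24.0% in each direction. The interaction of Ezh2 was 0.43 (SE 0.20, adjusted p = 0.0872) and did not pass.

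**Figure D1:**
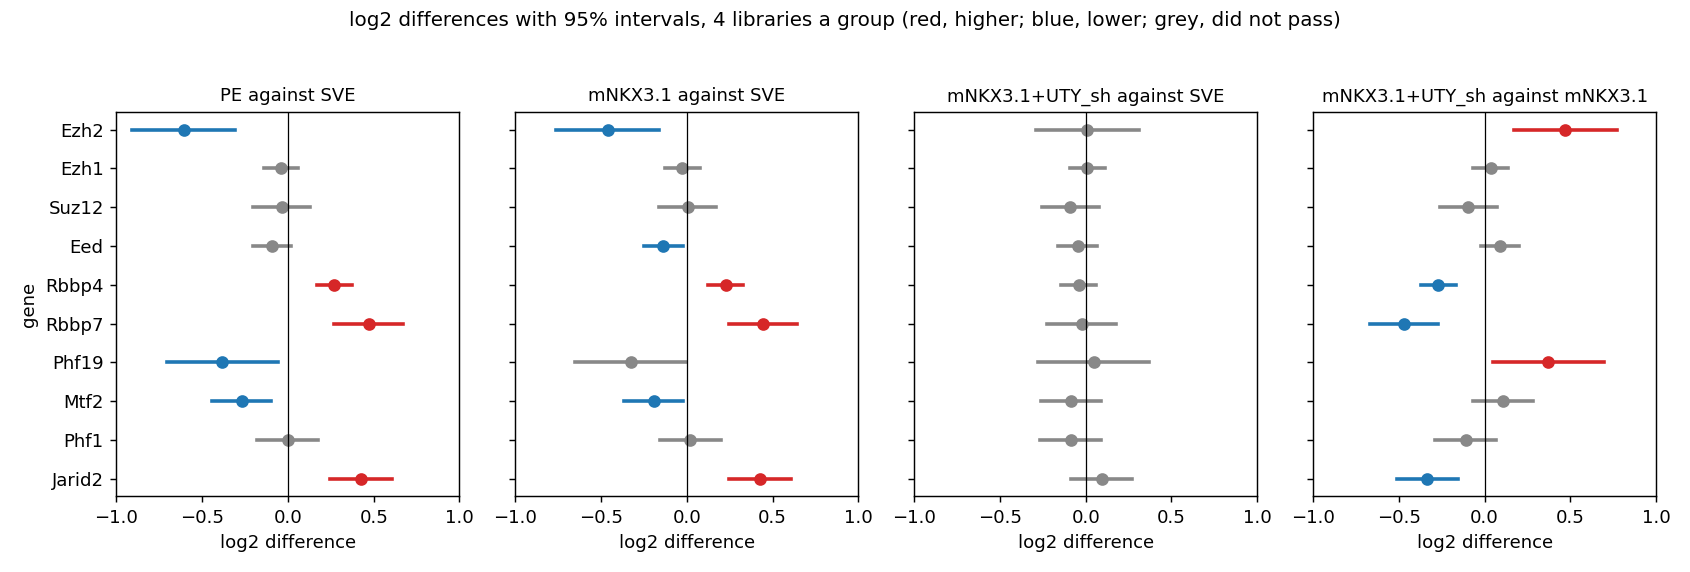
log2 differences (x axis) of the 10 PRC2 genes (y axis) in 4 comparisons, with 95% intervals from limma over 20 libraries, 4 a group; red is higher, blue lower and grey did not pass. Jarid2, Rbbp4 and Rbbp7 lie to the right in PE and mNKX3.1 against SVE and to the left in mNKX3.1+UTY_sh against mNKX3.1, and Ezh2 lies on the opposite side each time.

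Levels were compared between genes only per kb of transcript, with transcript lengths from GENCODE vM21. Rbbp7 was the highest of the 10 in all 5 groups, at 9.89 ± 0.13 (log2 per kb, SD, n = 4) in SVE and 10.36 ± 0.22 in PE. Phf1 and Rbbp4 followed, at 8.99 ± 0.09 and 8.72 ± 0.06 in SVE, and the ranges of these neighbours over SVE libraries did not overlap. In PE they stood at 8.99 ± 0.14 and 8.99 ± 0.08 and could not be ordered. Ezh1 at 8.15 ± 0.07 and Eed at 8.05 ± 0.07 had overlapping ranges in SVE, and so had Phf19 at 7.81 ± 0.05 and Suz12 at 7.78 ± 0.18. Jarid2 at 6.80 ± 0.11 and Mtf2 at 6.52 ± 0.10 came next. They differed little in SVE, where the highest Mtf2 library and the lowest Jarid2 library were both at 6.65, and were apart in PE, at 7.22 ± 0.19 and 6.25 ± 0.13. Ezh2 was the lowest in all 5 groups, at 5.76 ± 0.28 in SVE and 5.15 ± 0.25 in PE. Its values rest on about 90 to 180 reads a library, against 1580 to 4480 for Rbbp7.

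**Figure D2:**
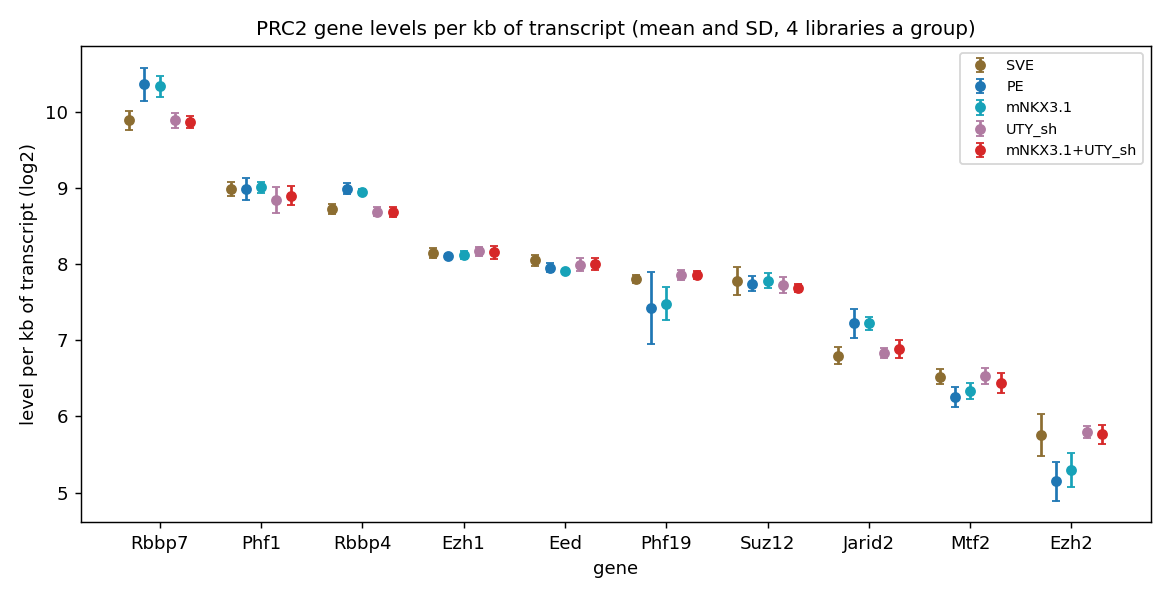
Level per kb of transcript (y axis, log2) of each PRC2 gene (x axis), mean and SD of 4 libraries for each of 5 groups. Rbbp7 is the highest and Ezh2 the lowest in every group, and the PE and mNKX3.1 points of Jarid2, Rbbp4 and Rbbp7 sit above those of the other 3 groups.

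The catalytic subunits differed in behaviour. Ezh2 was at 6.88, 7.16, 7.49 and 7.42 in the 4 SVE libraries and at 6.78, 6.44, 6.91 and 6.39 in PE. It was at 6.98, 6.87, 6.47 and 6.78 in mNKX3.1, at 7.39, 7.22, 7.22 and 7.26 in UTY_sh, and at 7.32, 7.37, 7.08 and 7.21 in mNKX3.1+UTY_sh. PE and mNKX3.1 were the low groups, and their ranges met those of SVE only through SVE replicate 1, the SVE library with the most prostate secretory RNA. UTY_sh replicate 3 and mNKX3.1+UTY_sh replicate 4, also high in that RNA, were at 7.22 and 7.21, above all PE and mNKX3.1 libraries. A link of Ezh2 to that RNA was not tested. The change in PE was -0.61 (SE 0.14, 95% interval -0.91 to -0.31, adjusted p = 0.00124 by limma), a 1.52-fold lower level. In mNKX3.1 it was -0.46 (SE 0.14, adjusted p = 0.00946). Without SVE replicate 1, UTY_sh replicate 3 and mNKX3.1+UTY_sh replicate 4 the PE difference was -0.73. SVE replicate 1 was the lowest SVE library for Ezh2, so a larger difference was fixed by leaving it out.

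Ezh1, by contrast, held within 10.11 to 10.32 over all 20 libraries. Its group means ran from 10.18 in PE to 10.24 in UTY_sh, and its difference in PE was -0.04 with a 95% interval from -0.14 to 0.06. Per kb, Ezh1 exceeded Ezh2 by 5.24 times in SVE (range over libraries 4.45 to 6.56), 7.77 times in PE (6.52 to 9.05) and 7.08 times in mNKX3.1 (6.48 to 8.51). In UTY_sh and mNKX3.1+UTY_sh the ratio was 5.18 and 5.25. The coding sequences of the pair are 70.3% identical and their longest identical run is 17 bases. Reads shared between the pair were not tested.

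Suz12 and Eed are needed for the enzyme to work at all. Suz12 lay between 9.70 and 10.12 in SVE and between 9.80 and 10.01 in PE, and its widest spread was within SVE itself. Its differences from SVE were -0.04 in PE, 0.00 in mNKX3.1 and -0.09 in mNKX3.1+UTY_sh, and none passed. Eed was at 9.0, 9.16, 9.11 and 9.12 in SVE, at 8.98, 8.96, 8.97 and 9.10 in PE and at 8.97, 8.94, 8.97 and 8.95 in mNKX3.1. All mNKX3.1 libraries were below all SVE libraries, whereas 1 PE library, replicate 4, lay within the SVE range. Of all genes, 54.9% had no overlap of libraries between mNKX3.1 and SVE. The Eed difference was -0.14 in mNKX3.1 (SE 0.05, adjusted p = 0.0342) and -0.09 in PE (adjusted p = 0.14). The mNKX3.1 call was kept in only 1 of the 8 fits that leave out 1 library.

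Rbbp4 and Rbbp7, the histone-binding subunits, were both higher in PE and mNKX3.1. Rbbp7 was at 11.21, 10.90, 11.05 and 11.05 in SVE, at 11.77, 11.34, 11.34 and 11.66 in PE and at 11.59, 11.38, 11.64 and 11.38 in mNKX3.1. UTY_sh ranged over 10.97 to 11.16, and mNKX3.1+UTY_sh over 10.95 to 11.15. The 8 PE and mNKX3.1 libraries were all above the 12 others. Of all genes, 48.9% had no overlap of libraries between PE and SVE, and 54.9% between mNKX3.1 and SVE. The share separated as 8 against 12 was not computed. The Rbbp7 difference was 0.47 in PE (SE 0.10, 1.39-fold, adjusted p = 0.000316 by limma) and 0.44 in mNKX3.1 (adjusted p = 0.000539).

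Rbbp4 was at 10.92, 10.86, 10.78 and 10.89 in SVE, at 11.20, 11.02, 11.14 and 11.17 in PE and at 11.12, 11.11, 11.09 and 11.04 in mNKX3.1. UTY_sh libraries lay at 10.78 to 10.91, and those of mNKX3.1+UTY_sh at 10.77 to 10.91. The same 8 libraries again stood above the rest, a separation whose share over all genes was not computed. The Rbbp4 difference was 0.27 in PE (SE 0.05, 1.21-fold, adjusted p = 9.74e-05 by limma) and 0.23 in mNKX3.1 (adjusted p = 0.000513). Per kb, Rbbp7 exceeded Rbbp4 by 2.24 times in SVE (2.02 to 2.41) and 2.58 times in PE (2.26 to 2.91), ranges that overlap. The coding sequences of Rbbp4 and Rbbp7 are 78.4% identical with a longest identical run of 20 bases.

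**Figure D3:**
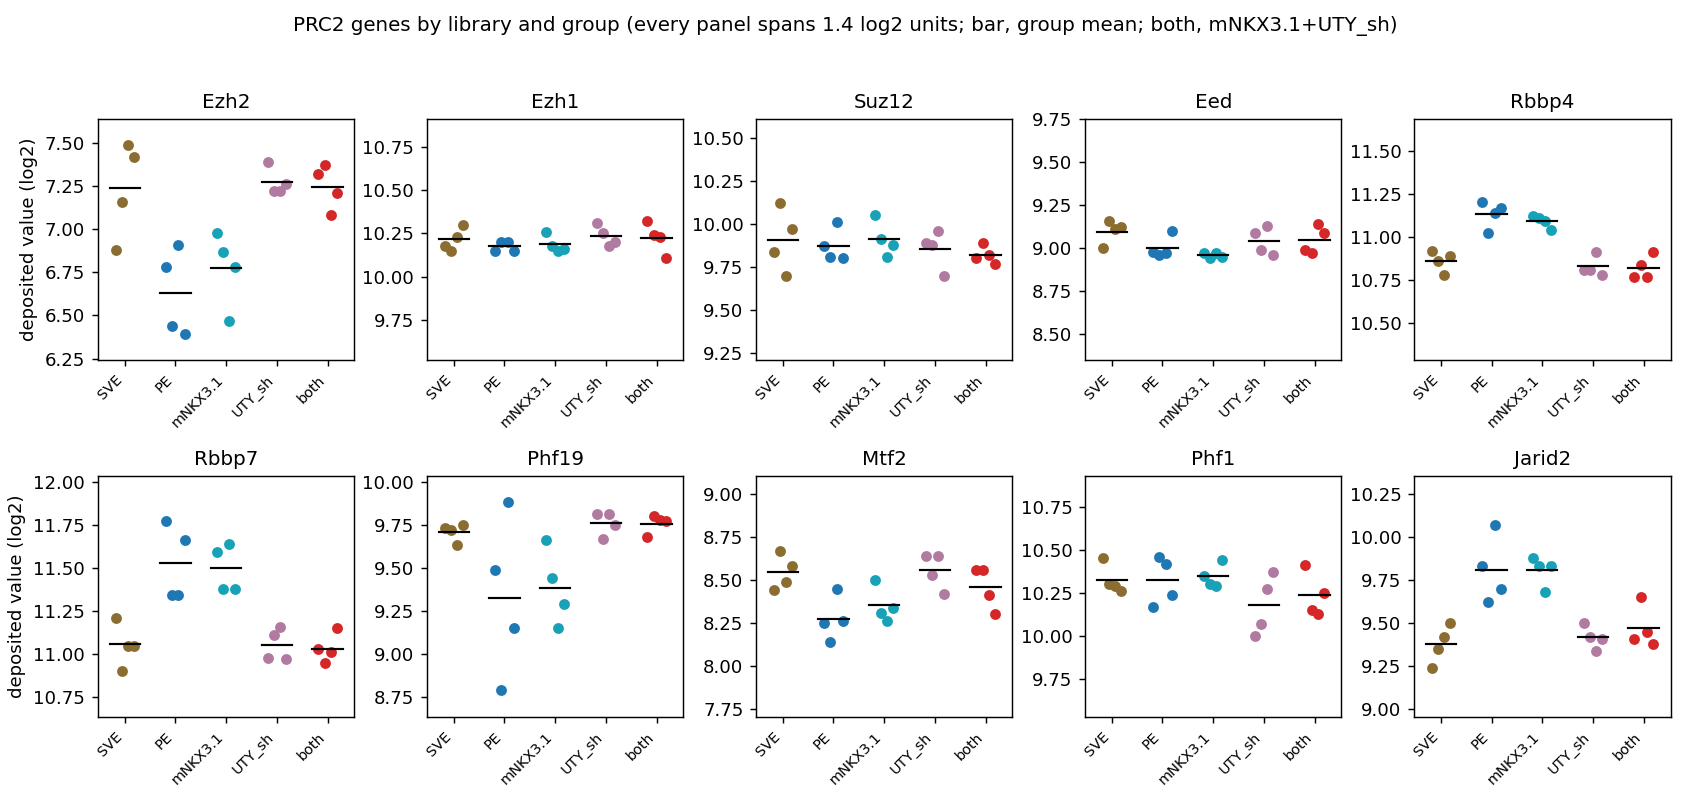
Deposited log2 value (y axis) of each of the 10 PRC2 genes by group (x axis), 1 point a library and a bar at the group mean; every panel spans the same 1.4 log2 units. Ezh1 stays within 10.11 to 10.32, PE and mNKX3.1 stand high for Jarid2, Rbbp4 and Rbbp7 and low for Ezh2, and the PE values of Phf19 spread from 8.79 to 9.88.

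The Polycomb-like proteins of PRC2.1 were split. Phf1 did not pass in any comparison, with group means from 10.18 in UTY_sh to 10.35 in mNKX3.1 and a PE difference of 0.00 (95% interval -0.18 to 0.18). Mtf2 was at 8.44, 8.67, 8.49 and 8.58 in SVE, at 8.25, 8.14, 8.45 and 8.26 in PE and at 8.50, 8.31, 8.26 and 8.34 in mNKX3.1. One library of each low group, PE replicate 3 and mNKX3.1 replicate 1, reached into the SVE range. The difference was -0.27 in PE (SE 0.08, adjusted p = 0.00856) and -0.19 in mNKX3.1 (adjusted p = 0.0494), and the second call was kept in 2 of 8 fits that leave out 1 library.

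Phf19 was at 9.73, 9.72, 9.63 and 9.75 in SVE, at 9.49, 8.79, 9.88 and 9.15 in PE and at 9.66, 9.44, 9.15 and 9.29 in mNKX3.1. UTY_sh lay within 9.67 to 9.81, and mNKX3.1+UTY_sh within 9.68 to 9.80. PE replicate 3 was the highest of all 20 libraries and PE replicate 2 the lowest, with an SD of 0.47 in PE against 0.05 in SVE. The PE difference of -0.38 (SE 0.15, adjusted p = 0.0381) was kept in 3 of 8 fits that leave out 1 library, and was -0.20 (adjusted p = 0.179) without PE replicate 2. The rise of 0.37 in mNKX3.1+UTY_sh against mNKX3.1 (adjusted p = 0.0423) was kept in 1 of 8.

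Jarid2, the PRC2.2 partner that binds nucleosomes and recruits the complex, was at 9.24, 9.35, 9.42 and 9.50 in SVE. It was at 9.83, 9.62, 10.07 and 9.70 in PE and at 9.88, 9.83, 9.68 and 9.83 in mNKX3.1. UTY_sh libraries lay at 9.34 to 9.50 and mNKX3.1+UTY_sh libraries at 9.38 to 9.65. PE and mNKX3.1 did not overlap SVE, and the difference was 0.43 in both, with an SE of 0.09 and a 1.34-fold higher level (adjusted p = 0.000281 in PE and 0.000277 in mNKX3.1). Within single libraries the deposited value of Jarid2, which is not per length, exceeded that of Mtf2 by 0.68 to 0.93 in SVE, 1.44 to 1.62 in PE and 1.38 to 1.53 in mNKX3.1. In UTY_sh and mNKX3.1+UTY_sh this gap was 0.70 to 0.98 and 0.85 to 1.09. The gap between Jarid2 and Mtf2 was thus wider in all 8 PE and mNKX3.1 libraries than in any of the 12 others. As Jarid2 was called higher and Mtf2 lower in both groups, a wider gap follows from those calls and is no further result. The gap between Phf19 and Mtf2 overlapped, at 1.05 to 1.30 in SVE and 0.65 to 1.43 in PE. How many gene pairs in general are separated in this way was not computed. Without SVE replicate 1, UTY_sh replicate 3 and mNKX3.1+UTY_sh replicate 4, the Jarid2 interaction was -0.32 (adjusted p = 0.061), against -0.37 with all libraries. Among PE, mNKX3.1 and SVE, 3 members in PE against SVE (Jarid2, Rbbp4 and Rbbp7) and 4 in mNKX3.1 against SVE (those and Eed) had no overlap of libraries, where 48.9% and 54.9% of all genes had none.

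**Figure D4:**
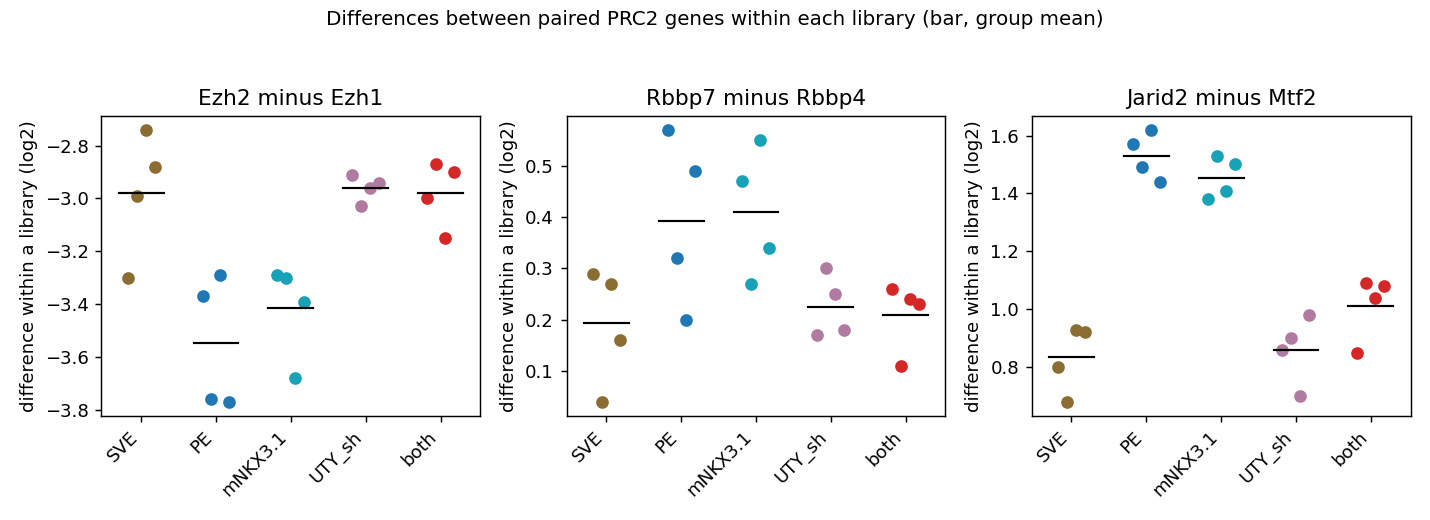
Difference in deposited log2 value (y axis) between 2 PRC2 genes within each library, by group (x axis), with a bar at the group mean. Jarid2 minus Mtf2 is 1.38 to 1.62 in PE and mNKX3.1 and 0.68 to 1.09 in the other groups, whereas Rbbp7 minus Rbbp4 overlaps between groups.

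Leukocyte markers moved with part of these differences. The list held Ptprc, Cd68, Emr1, Csf1r, Cd3e, Cd79a, Lyz2, Itgam and Laptm5, of which 7 were tested. In PE against SVE 2 were higher and 5 did not pass. Of all genes, 62.1% were called there and 31.8% were higher, so 2 of 7 higher is near the share of genes in general. The T and B cell genes Cd3e and Cd79a stayed under the minimum. Emr1, which marks macrophages, was higher by 2.52 (SE 0.90) and Cd68, also of macrophages, by 0.90 (SE 0.26). The summed leukocyte level was 11.29 to 11.65 in SVE, 10.98, 14.08, 11.44 and 13.30 in PE replicates 1 to 4, and 11.20, 13.25, 12.99 and 13.45 in mNKX3.1. The 5 libraries above 12 were the 5 lowest of all 20 for Phf19, from 8.79 to 9.44.

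The fits were therefore repeated without those 5 libraries, a choice made after the marker sums were seen. In PE against SVE the Phf19 difference became -0.03 (adjusted p = 0.83) and that of Mtf2 -0.19 (adjusted p = 0.133). Ezh2 became -0.39 (adjusted p = 0.0446), while Jarid2, Rbbp4 and Rbbp7 were at 0.57, 0.31 and 0.50 and still passed. This left 4 members called in PE against SVE. That fit had fewer libraries for every gene, and the share of all genes it called is not given here. Fewer calls are therefore no result about the members. In mNKX3.1, of which 1 library then remained and was taken to vary like the other groups, Ezh2 was at -0.26 and Jarid2 at 0.50. With the summed level as a covariate over all 20 libraries, the PE differences were -0.47 for Ezh2 (adjusted p = 0.00757) and -0.14 for Phf19 (adjusted p = 0.247), and the mNKX3.1 difference of Ezh2 was -0.29 (adjusted p = 0.103). In PE against SVE the differences of Jarid2, Rbbp4 and Rbbp7 were as large without the leukocyte-rich libraries. Those of Phf19, Mtf2 and Ezh2 were smaller. PE replicates 2 and 4, which were left out, were the lowest of PE for Phf19, Ezh2 and Jarid2. Smaller differences of Phf19 and Ezh2 and a larger one of Jarid2 were therefore fixed by the choice of libraries. Whether leukocytes cause the differences was not tested, and no other tissue marker was used in a refit.

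**Figure D5:**
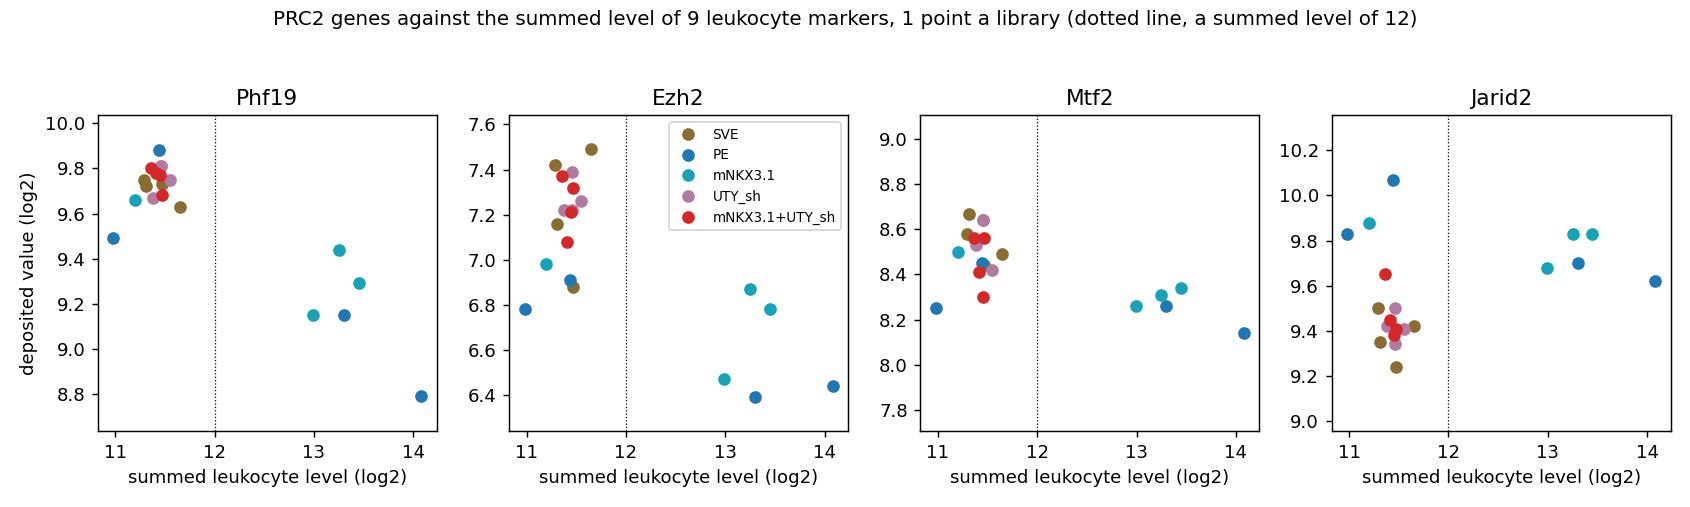
Deposited log2 value (y axis) of 4 PRC2 genes against the summed log2 level of 9 leukocyte markers (x axis), 1 point for each of 20 libraries; the dotted line is at 12. The 5 libraries right of the line have the lowest Phf19 values, and Jarid2 is high in PE and mNKX3.1 libraries on either side of it.

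Other tissue markers moved too, and their part in the PRC2 differences was not tested. The counts below are for PE against SVE, where 62.1% of all genes were called, 31.8% higher and 30.4% lower. All 10 smooth muscle genes fell in PE, with summed levels of 15.68 to 16.15 against 16.69 to 17.40 in SVE. Of 7 luminal epithelial genes 6 were higher and 1 was lower, with sums of 14.96 to 15.10 against 14.27 to 14.64, and of 6 basal genes 2 were higher and 4 lower, with sums of 12.67 to 12.86 against 12.56 to 12.93. Of 8 fibroblast genes 4 were lower and 4 did not pass, with sums of 14.06 to 14.18 against 14.18 to 14.73. Nerve genes were higher in PE in 5 of 5 tested, with sums of 8.29 to 9.66 against 7.27 to 7.75, and S100b stayed under the minimum. Adipocyte genes were also higher in 5 of 5 tested, with sums of 9.78 to 11.04 against 6.81 to 9.97, and Lep stayed under the minimum.

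Endothelial markers showed 1 gene higher, 2 lower and 3 not called of 6. The vascular receptor gene Kdr fell by 0.96 (SE 0.12). The summed endothelial level was 10.83, 11.02, 10.32 and 10.87 in PE replicates 1 to 4, against 10.88 to 11.19 in SVE and 10.56 to 10.89 in mNKX3.1. PE replicate 3, the lowest of all 20 libraries in this sum, was the highest of all 20 in Phf19 and Jarid2, and PE replicate 2, the highest of PE in it, was the lowest of PE in both genes. PE replicate 3 also had the lowest nerve sum of PE, at 8.29, and the highest adipocyte sum, at 11.04. In such bulk grafts fewer cells of a type and less RNA per cell cannot be told apart, and RNA of the rat stroma that was counted under mouse genes cannot be told apart from mouse RNA.

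Proliferation genes, which usually accompany EZH2, did not follow 1 direction in PE against SVE. Of 25 listed, 18 were tested in PE against SVE, and 2 were higher, 3 lower and 13 did not pass, where 62.1% of all genes were called. Top2a, the DNA topoisomerase of dividing cells, was higher by 1.38 (SE 0.25) and the mitotic kinase gene Aurka by 0.68 (SE 0.15), whereas the ribonucleotide reductase gene Rrm2 fell by 0.72 (SE 0.14). The summed level of the 25 genes was 10.91 to 11.26 in PE and 10.82 to 11.38 in SVE. In mNKX3.1+UTY_sh against mNKX3.1, where Ezh2 was higher, 6 of 18 tested were higher, 2 lower and 10 did not pass. Of all genes, 31.4% were higher and 32.4% lower there. The summed level was 11.13 to 11.25 in mNKX3.1+UTY_sh and 10.86 to 11.11 in mNKX3.1. A link between these genes and Ezh2 was not tested. Of 11 tested genes of the E2F and RB family, which control S-phase genes, 6 were higher and 3 lower in PE against SVE. Of all genes, 31.8% were higher and 30.4% lower in that comparison. E2f6, a repressor of that family, was higher by 0.50 (SE 0.08) and Rbl2, an RB-like pocket protein gene, by 0.36 (SE 0.06), while Tfdp2, a partner of E2F, fell by 0.48 (SE 0.08).

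Promoter sequences of the 10 genes were read to show where such E2F letters stand. They come from RefSeq on the build GRCm38.p6, which is not the build of the files, and hold 300 bases, 250 before and 50 after a transcript start. The letters searched were TTCCCGC and TTGGCGC on both strands. They were found in 4 of the 10 genes (Ezh2, Phf19, Rbbp4 and Suz12), and in 7.8% of the 27025 genes of the same table. Both strings contain a CpG, and most promoters of the 10 genes hold more CpG than the median promoter, as given below. The 7.8% is therefore not a matched background, and enrichment was not tested. The genes with the letters were lower (Ezh2 and Phf19), higher (Rbbp4) and not called (Suz12) in PE. A match describes the letters only. The 30 bases around each match are shown 5′ to 3′ on the gene's strand, with the match in capitals.
Ezh2: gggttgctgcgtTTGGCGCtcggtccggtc
Phf19: cgtcaataattcGCGGGAAaacgcgaaaaa
Rbbp4: cattggtcggtgTTGGCGCgaaggcacgcg
Suz12: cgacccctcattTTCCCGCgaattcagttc
The Ezh2 stretch is chr6:47595009-47595038 (minus strand), with the match at base 5 of the transcript. The Phf19 stretch is chr2:34914167-34914196 (minus strand), with the match 208 bases before the start. The Rbbp4 stretch is chr4:129335368-129335397 (minus strand), 15 bases before the start, and that of Suz12 is chr11:79992876-79992905 (plus strand), 218 bases before it. The 12 promoters listed for the 10 genes held 2 to 41 CpG dinucleotides, the lowest being a second Mtf2 start, against a median of 7 over 32851 promoters.

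The other chromatin genes that act with or against PRC2 were counted in PE against SVE, beside the 62.1% of all genes called. Of 5 further PRC2 partner genes 3 were tested, and 2 were higher. Aebp2, the other defining gene of PRC2.2, was higher by 0.19 (SE 0.05, adjusted p = 0.00252), and Lcorl, which encodes a further PRC2.1 partner, by 0.33 (SE 0.07).

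PRC1, the complex that ubiquitinates histone H2A and reads the PRC2 mark, had 4 genes higher, 6 lower and 13 not called of 23. Bcorl1, the gene of a BCOR-like corepressor, fell by 0.81 (SE 0.08), Phc1, of the Polyhomeotic subunits, by 0.91 (SE 0.09) and Cbx7, a reader of the mark, by 0.65 (SE 0.06). Of the H3K27 demethylase genes, Uty was higher by 0.95 (SE 0.11), Kdm6b fell by 0.57 (SE 0.08) and Kdm6a, at 0.01 (SE 0.08), did not pass. Of 3 tested genes of the H2A deubiquitinase complex PR-DUB, Asxl1 fell by 0.22 (SE 0.07).

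Among 13 trithorax-type genes, whose products act on histone H3 lysine 4, 2 were higher and 7 lower. Men1, the gene of menin, fell by 1.09 (SE 0.06), Kdm5b, a demethylase of that lysine, by 1.15 (SE 0.12) and Wbp7 by 0.51 (SE 0.07). Of 13 SWI/SNF remodelling genes 3 were higher and 6 lower. The ATPase gene Smarca4 was higher by 0.65 (SE 0.04) and Smarcb1, a core subunit, by 0.50 (SE 0.06), and Arid1a fell by 0.39 (SE 0.04).

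The complexes that share RBBP4 and RBBP7 with PRC2 (NuRD, Sin3 and CAF-1) had 6 genes higher, 3 lower and 7 not called of 16. The deacetylase gene Hdac2 was higher by 0.37 (SE 0.06) and the NuRD gene Mta3 by 0.30 (SE 0.05), while Sap30, a Sin3 subunit, fell by 0.65 (SE 0.12). Of 32 developmental regulators that carry the PRC2 mark in embryonic stem cells, 24 stayed under the minimum level and 8 were tested, with 1 higher, 5 lower and 2 not called. Isl1 and Hand2, which encode transcription factors of organ formation, had differences of -0.92 and -1.46. No histone mark was measured in these libraries.

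The genes most like Ezh2 and Ezh1 from library to library were ranked by Pearson's r of the deviations from the group means, over 20 libraries and 9859 genes with a mean of at least 7. For Ezh2 they were Fyco1 (r = 0.87), Ubr1 (0.87), Ctr9 (0.86), Nbea (0.85) and Tanc1 (0.85). For Ezh1 they were Slc25a27 (0.85), Acvr1b (0.82), Ppp1r13b (0.82), Nr2c2 (0.81) and Igsf9 (0.81). These values describe libraries that share depth, composition and leukocyte content within themselves.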

How the data were processed

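Poly-A RNA was made into Illumina TruSeq libraries, per the labels' protocols. The build mm9 and the tools TopHat2 2.0.4, Cufflinks 2.0.2, DESeq and bcl2fastq 1.8.4 stand in the submitters' processing notes. How reads were counted, on which annotation, and what was done with rat reads is not given in the sources used here. As deposited by the authors, log2 values run from 0.0193 to 22.42, 1 for each gene in each library. Between log2 values of 11.5 and 12 the antilogs were whole multiples of 1 unit per library (100% within 0.1), which gave the depth. Below 10 no genes of a library shared a value, so whole reads could not be recovered there and no count test was run. Low values flattened at a floor (median 2.27 over the 5801 genes whose mean was below 2.5), which understates folds of low genes.

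Genes with a log2 value of at least 5 in at least 4 libraries were kept (13456). limma 3.58.1 in R 4.3.3 fitted 1 mean per group over all 20 libraries with 15 residual degrees of freedom, a variance trend and Benjamini-Hochberg adjustment within each of 8 comparisons. The fit was tested on simulated data. Transcript and coding lengths came from GENCODE vM21, promoters from RefSeq. Alternatives were another scaling (equal medians, quantile), no filter or a minimum of 7, only the groups compared, robust moderation, leaving out 1 library or 3 libraries with much probasin RNA and, added later, 2 treatments of leukocyte-rich libraries. The members and lists were chosen with earlier results of these data known. Named are the 10 members, the 3 H3K27 demethylases, up to 3 called genes a list by smallest p in PE against SVE, and the 5 genes most like Ezh2 and Ezh1, apart from genes that are not reported here. Counting limits precision most for Ezh2.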

Additional observations from a re-analysis of the deposited data

Results flagged for a closer look

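In PE, Eed replicate 4 was at 9.10, and the nearest other library was at 8.98. Its distance from the other 3 was large for a group of 4 by Dixon's test, which marks about 1 in 20 groups by chance, and it was the sole mark among the 50 combinations of gene and group examined.

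The interaction of the construct and hairpin labels was called by limma for Jarid2 at -0.37, Rbbp4 at -0.24 and Rbbp7 at -0.47. The 3 genes fell in mNKX3.1+UTY_sh against mNKX3.1, in 4 of 4 libraries below all of mNKX3.1, and overlapped between UTY_sh and SVE. Between mNKX3.1+UTY_sh and mNKX3.1, 61.9% of all genes had no overlap of libraries. The interaction was called for 48.1% of all genes.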

How the results depend on the processing

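No paired analysis was possible because the labels give no replicate numbers that groups share. Over the fits that leave out 1 library, the count of PRC2 members called ranged from 5 to 6 in PE against SVE, 4 to 6 in mNKX3.1 against SVE, 4 to 5 in mNKX3.1+UTY_sh against mNKX3.1 and 3 to 4 for the interaction. Rescaling to equal medians or a minimum of 7 kept all 20 member calls. With the leukocyte level as a covariate, 3 members were called in mNKX3.1 against SVE, against 6 as reported. In mNKX3.1+UTY_sh against mNKX3.1 it was 3, against 5. The fit without leukocyte-rich libraries is not counted here, as it left a single mNKX3.1 library. Shares of all genes called in these alternative fits are not given here, so a fall in count is no result about the members. The covariate fit kept 14 of the 20 calls. Leaving out 3 libraries rich in probasin RNA kept 17 and ended that of the Jarid2 interaction, whose estimate was -0.32 against -0.37 with more libraries. Fitting only the groups compared ended the Phf19 call in PE (adjusted p = 0.135), as did testing all genes (adjusted p = 0.0515). The Ezh2 interaction passed without SVE replicate 1, at 0.55 (adjusted p = 0.023). That library was the lowest of SVE for Ezh2, so a larger estimate was fixed by leaving it out. No called member changed sign in any fit. Depth limits Ezh2 most, at about 90 to 180 reads a library.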
